A study of Rattus norvegicus with 4 samples.

Results

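Transcript levels of 10 genes that encode feedback inhibitors of mitogen-activated protein kinase (MAPK) signaling were compared between monolayer and 3D-bioprinted insulin-secreting cells. The genes are the phosphatases Dusp1, Dusp4, Dusp5, Dusp6, Dusp8 and Dusp10 and the adaptor-type inhibitors Spry1, Spry2, Spry4 and Spred1. They are 10 of the 23360 gene symbols in the files, and their values are the TPM (a share of all transcripts in the sample, already corrected for transcript length) summed over the transcripts of each symbol. The genes were chosen by family membership and by the TPM difference between 3D and 2D culture in these same 4 samples, with earlier results known. For these 10 genes that difference is therefore given as a description. Counts of members called are printed beside those of all genes and carry no weight. All samples were the INS-1 832/3 cell line, a rat insulinoma line that secretes insulin, at passage 3 after 5 days in the same RPMI-1640 medium. The 2D group holds 2 standard monolayer cultures, and the 3D group holds 2 cultures printed in GelXA LAMININK 411, a gelatin methacrylate hydrogel that contains laminin-411. Since the 3D cultures differed from the monolayers by the hydrogel, the printing, the light crosslinking and the 3D growth together, these cannot be told apart. The line is a tumor line that grows in culture, which limits it as a model of islet β-cells.

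MAPK cascades carry signals from growth factor receptors, calcium and stress to the nucleus through ERK, JNK and p38. Their activity is limited by proteins that the cascades themselves induce. Dual-specificity phosphatases (DUSP) of the MAP kinase phosphatase class remove the activating phosphates from the threonine and the tyrosine of the kinases. Sprouty (Spry) and Spred proteins act further upstream, between receptor and RAF. In β-cells, glucose and incretin hormones activate ERK, and ERK signaling is linked to insulin gene transcription and growth. Transcripts of many of these inhibitors are short-lived and follow the activity of the pathway, although transcript levels are no measure of kinase phosphorylation.

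The levels in each sample came from TPM values that sum to 1000000. Each sample had a value above 0 for 19355 to 19959 of its transcripts. As depth is lost in TPM, the counting error of the levels is unknown. The cells expressed the markers of their labelled type, with 147090 to 170000 TPM summed over the 9 β-cell markers found in the files, of which Ucn3 alone was below 1 TPM. Among 6 fibroblast markers, Thy1 alone was above 1 TPM, at 178 to 212 TPM, and Dcn, Lum and Pdgfrb were listed at 0 in every sample. The 5 endothelial markers summed to 1.08 and 1.15 TPM in 2D and 1.40 and 1.68 TPM in 3D, most of it Kdr, with Cdh5 and Emcn at 0. The 6 leukocyte markers summed to 0.861 and 0.562 TPM in 2D and 1.00 and 1.56 TPM in 3D, with Ptprc at 0. The glucagon gene Gcg stood at 41.9 and 73.8 TPM in 2D and at 124 and 155 TPM in 3D, and of the other 4 markers of non-β islet cells none reached 1 TPM. The part of these transcripts in the results was not tested. In a bulk sample, fewer cells of a kind and less RNA per cell cannot be told apart.

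The DNA just before the start sites of the genes was read from RefSeq (build GRCr8, not the rn4 build named for the quantification) to show what the members share in sequence. Of the 10 genes, 9 had a promoter window in that table, Spry2 with a pair of start sites, and Dusp4 is named only. The 250 bases before each annotated start site were searched on both strands for the motifs of factors that MAPK and cAMP signals act on. The sequences of 3 genes are shown in full. Dusp5 and Dusp1 are shown because their windows hold the longest matches, and Spry2 because it stands for the Sprouty genes with the largest difference between cultures. Capitals mark the CArG box, the cAMP response element (CRE, TGACGTCA) and its core TGACG, each read 5′ to 3′ up to the base before the start site.
Dusp5 (chr1:262543524-262543773, plus strand): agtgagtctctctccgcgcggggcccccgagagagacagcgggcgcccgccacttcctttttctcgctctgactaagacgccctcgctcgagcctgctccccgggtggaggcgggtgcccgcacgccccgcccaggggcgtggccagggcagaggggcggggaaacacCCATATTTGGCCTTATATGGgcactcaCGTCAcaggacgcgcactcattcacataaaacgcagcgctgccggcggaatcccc
Dusp1 (chr10:17184603-17184852, plus strand): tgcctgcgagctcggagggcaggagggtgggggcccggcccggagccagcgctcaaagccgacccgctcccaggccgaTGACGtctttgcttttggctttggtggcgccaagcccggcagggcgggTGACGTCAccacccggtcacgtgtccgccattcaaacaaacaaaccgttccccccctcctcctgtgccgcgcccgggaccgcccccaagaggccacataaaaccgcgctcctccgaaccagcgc
Spry2 (chr15:89111927-89112176, minus strand, first window): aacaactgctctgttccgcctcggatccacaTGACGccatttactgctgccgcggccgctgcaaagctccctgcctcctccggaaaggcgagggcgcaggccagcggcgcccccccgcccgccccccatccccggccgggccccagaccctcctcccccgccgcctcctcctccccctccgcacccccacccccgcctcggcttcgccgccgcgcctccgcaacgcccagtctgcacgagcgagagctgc

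The Dusp5 window held a pair of CArG boxes, the motif bound by serum response factor, which lay directly side by side from 82 to 73 and from 72 to 63 bases before the start site. Their letters are CCATATTTGG and CCTTATATGG. A CArG box was found in 1.5% of the 33469 windows of the table. The Dusp1 window held a full CRE from 124 to 117 bases before the start site, which 1.59% of all windows held. The core TGACG, which overlaps each full CRE and lay once more in Dusp1 outside it, was found in Dusp1, Dusp5 and Spry2, thus in 3 of the 9 genes, and in 18.2% of all windows. The ETS core CCGGAA was found in Spry2 and Spry4 and in 12.6% of all windows. No member window held the AP-1 site TGANTCA or the TATA box TATAAA, which 6.34% and 12.9% of all windows held. The GC box GGGCGG was found in 7 of the 9 genes and in 30.5% of all windows. The member counts are of genes with a motif in any window, while the shares are of single windows, so the units differ for Spry2. The member windows were between 54.8% and 74.8% G and C, and the median of all windows was 51.2%. A match describes letters in the window and does not show that a factor bound there.

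**Figure D1:**
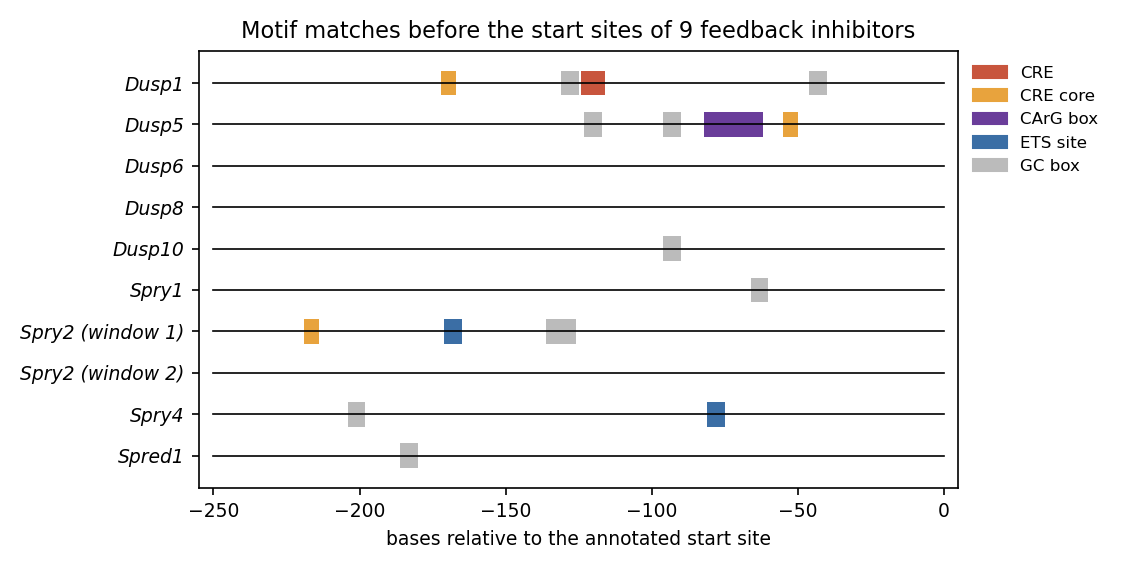
Position of each motif match (bars, drawn to scale) in the 250 bases before the annotated start site of 9 feedback inhibitors, with Spry2 shown for both of its start sites. The x axis gives bases relative to the start site. The pair of CArG boxes lies in Dusp5 alone and the full CRE in Dusp1 alone, and Dusp6, Dusp8 and the second Spry2 window hold none of the motifs.

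Among the nuclear phosphatases that growth factors induce, Dusp4 and Dusp5 stood apart most clearly between the cultures. Dusp4, which acts on ERK, JNK and p38, was at 7.14 and 6.25 TPM in 2D and at 18.4 TPM in both 3D samples. Both 3D levels were more than double the higher monolayer level, and the 3D samples differed by less than the monolayers did. The ratio of the group means was 2.75, and the log2 fold change on scaled log2(TPM + 1) was 1.30 (standard error 0.073). It was larger than that of 99.2% of the 11960 genes tested, a rank without weight since the choice of Dusp4 used this difference. Dusp5, a nuclear phosphatase that is selective for ERK, was at 11.0 and 11.2 TPM in 2D and at 26.1 and 24.5 TPM in 3D. Its group means were 11.1 ± 0.141 and 25.3 ± 1.10 TPM (SD, n = 2), with a log2 fold change of 1.08 (standard error 0.074). Dusp1, the founding member of the class, which acts on p38, JNK and ERK, differed less. It was at 13.8 and 14.3 TPM in 2D and at 17.3 and 18.8 TPM in 3D, with a ratio of group means of 1.29 and a log2 fold change of 0.30 (standard error 0.077). The groups did not overlap for any of these 3 genes, a state that 74.2% of all genes tested shared in either direction. The gap between the nearest samples was widest for Dusp5 and narrowest for Dusp1. Summed over the 3 genes, the level was 31.9 and 31.8 TPM in 2D and 61.8 TPM in each 3D sample, so the Dusp1 share of it was smaller in 3D. The TPM ratio of Dusp4 to Dusp1 was 0.518 and 0.435 in 2D and 1.06 and 0.979 in 3D.

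Dusp6 encodes the ERK-selective phosphatase of the cytoplasm. Its level was 5.15 and 4.69 TPM in 2D and 9.72 and 9.80 TPM in 3D. The monolayers and the 3D samples each lay close together, and the ratio of the means was 1.98, with a log2 fold change of 0.83 (standard error 0.076). For the ERK-selective pair of nuclear Dusp5 and cytoplasmic Dusp6, the ratios of the means were thus 2.27 and 1.98. The TPM ratio of Dusp5 to Dusp6 was 2.14 and 2.39 in 2D and 2.68 and 2.50 in 3D. The nearest values of the cultures lay closer together than those of the monolayers did, so no shift between these genes is read from it.

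Dusp8 and Dusp10 encode phosphatases that act on JNK and p38 rather than on ERK. Dusp8, known for its expression in neurons, was the most abundant of the 10 genes in every sample, at 40.2 and 35.4 TPM in 2D and 51.1 and 55.7 TPM in 3D. Its samples did not overlap between the groups, as was so for 74.2% of all genes tested in either direction. The ratio of the means was 1.41 with a log2 fold change of 0.45 (standard error 0.069). Dusp10 was at 5.40 and 7.83 TPM in 2D and at 8.10 and 9.22 TPM in 3D. The second monolayer almost reached the first 3D sample. The log2 fold change of 0.32 had a standard error of 0.18, the largest of the 10 genes, and it ran from 0.056 without 2D replicate 1 to 0.58 without 2D replicate 2.

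The Sprouty proteins inhibit receptor signaling between the adaptor GRB2 and RAF. Spry2 was at 5.01 and 5.10 TPM in 2D and at 12.1 and 10.4 TPM in 3D, so that the lower 3D sample was still about double the monolayers. Its ratio of means was 2.23 and its log2 fold change 0.98 (standard error 0.10). Spry4 was at 6.24 and 5.93 TPM in 2D and at 9.29 and 9.08 TPM in 3D, a log2 fold change of 0.49 (standard error 0.075). Spry1, the least abundant Sprouty gene of the list, was at 2.40 and 3.05 TPM in 2D and at 4.87 and 4.76 TPM in 3D, a log2 fold change of 0.61 (standard error 0.13). At such levels the added pseudocount of 1 lowers the fold change, and with a pseudocount of 0.1 it was 0.77. Spry4 exceeded Spry2 in both monolayers and lay below it in both 3D samples, with TPM ratios of Spry2 to Spry4 of 0.803 and 0.859 in 2D and 1.30 and 1.14 in 3D. Spred1, which recruits the RAS inactivator neurofibromin, was at 2.98 and 1.85 TPM in 2D and at 4.08 and 3.61 TPM in 3D. The monolayers differed from each other more than the higher of them differed from the lower 3D sample, and the log2 fold change was 0.49 (standard error 0.17). It ran from 0.28 without 2D replicate 2 to 0.71 without 2D replicate 1.

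**Figure D2:**
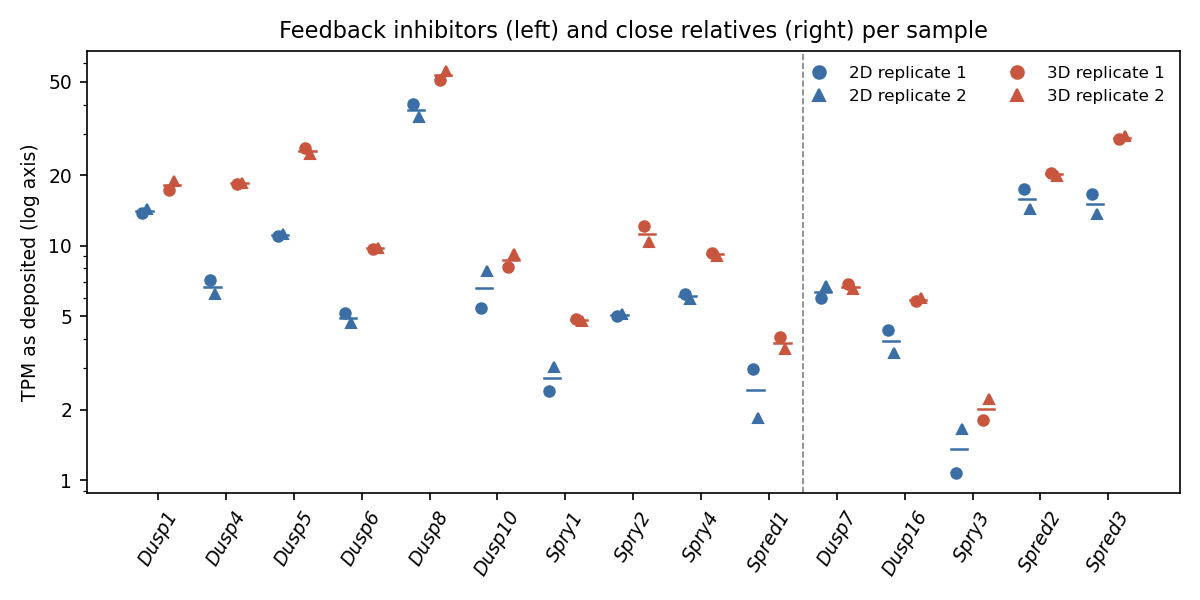
TPM as deposited (log axis) of the 10 feedback inhibitors and, right of the dashed line, 5 close relatives, in each of the 4 samples (circles for replicate 1, triangles for replicate 2, bars for the group mean). Both 3D samples lie above both monolayers for each of the 10 genes, as for 41.1% of all genes tested. Among the 10 the widest gaps are those of Dusp4, Dusp5, Dusp6 and Spry2, while the groups overlap for the relative Dusp7.

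In TPM as deposited, both 3D samples lay above both monolayers in all 10 genes. Of all genes tested 41.1% showed this pattern, while 74.2% had no overlap between the groups in either direction. These overlaps were taken before scaling between samples. After scaling, the nearest samples of Dusp10 overlap slightly. With an adjusted p below 0.05 in limma as the call, 8 of the 10 were called higher, where 18.5% of all genes were called higher, and Dusp10 and Spred1 were not called. No weight is placed on either count, since the choice of the genes used this difference. The same holds for the median log2 fold change, which was 0.55 for the 10 genes and -0.003 for all genes tested. Without 3D replicate 1 the members called were 0 and the genes called in all 37, and without 3D replicate 2 they were 4 and 633. The direction was the same for all 10 genes in each of the 11 other settings in which they were measured. This carries no weight either, since the choice of the genes used the difference. The filter, the replicate block and the trend also leave the fold change itself as it is.

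**Figure D3:**
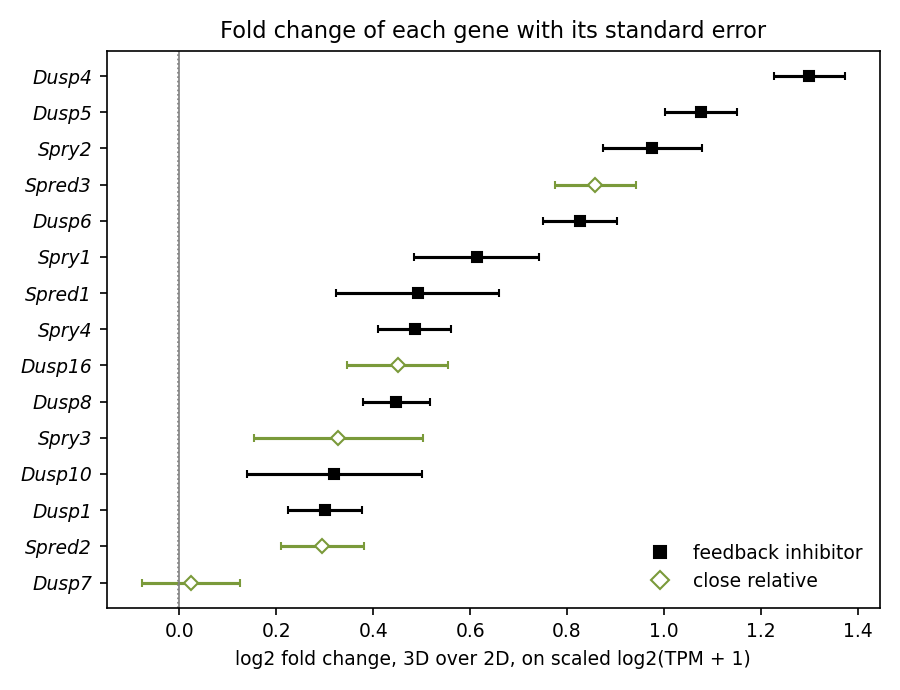
Log2 fold change of 3D over 2D culture on scaled log2(TPM + 1), with standard error bars, for the 10 feedback inhibitors (squares) and 5 close relatives (diamonds). The solid line marks 0 and the dotted line the median of all genes at -0.003, and the values run from 0.025 for Dusp7 to 1.30 for Dusp4.

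Summed over the 10 genes, the level was 99.3 and 95.6 TPM in 2D and 161 and 164 TPM in 3D, a ratio of means of 1.67. Without Dusp8 the ratio was 1.83. Dusp8 alone supplied 40.5% and 37.0% of the sum in 2D and 31.7% and 33.9% in 3D. The share of Dusp5 was 11.1% and 11.7% in 2D and 16.2% and 14.9% in 3D. In contrast, the share of Dusp1 was 13.9% and 15.0% in 2D and 10.8% and 11.5% in 3D. The order of the levels changed accordingly. In both monolayers Dusp8 was followed by Dusp1 and then Dusp5, whereas in both 3D samples Dusp5 stood second. Dusp1 and Dusp4 shared the next places in 3D and did not differ beyond the spread of the samples, as Dusp4 was above Dusp1 in replicate 1 and below it in replicate 2. At the low end, Spry1 and Spred1 held the last places in all 4 samples. Each member was listed with 1 transcript, apart from Spry1, whose other transcript was at 0 in every sample, so no member could be divided into isoforms.

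**Figure D4:**
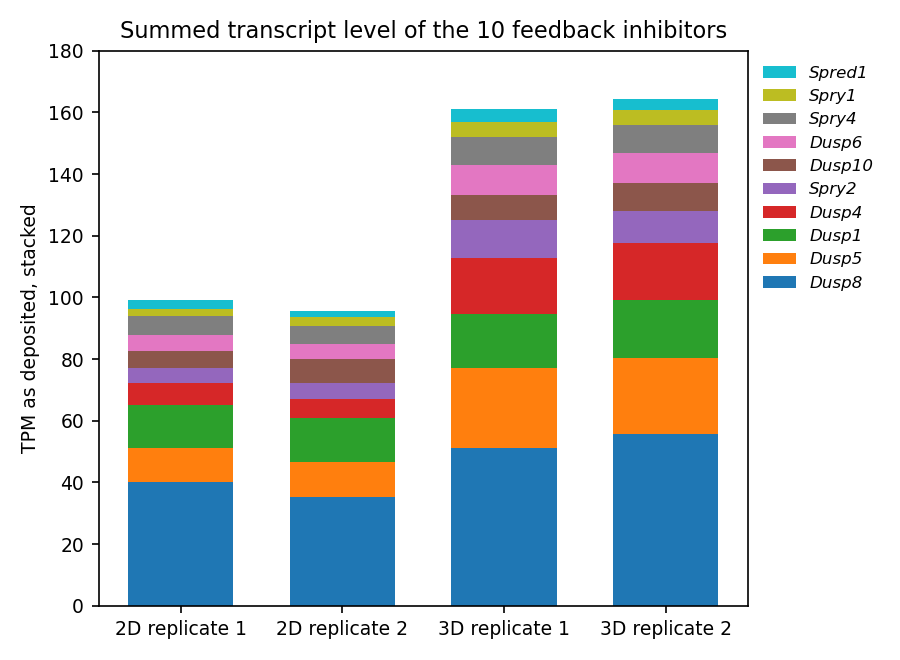
TPM as deposited of the 10 feedback inhibitors, stacked for each sample. The stacks reach 99.3 and 95.6 TPM in 2D and 161 and 164 TPM in 3D, and Dusp8 forms the largest part in every sample.

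The 7 remaining genes of the same families were not on the list and were tested with limma, with p-values adjusted by the Benjamini-Hochberg method over all 11960 genes. Of them 5 passed the expression filter, 3 rose and none fell, where 18.5% of all genes tested rose and 19.5% fell. Spred3, the third Spred gene, was at 16.6 and 13.6 TPM in 2D and at 28.5 and 29.3 TPM in 3D. This rise had a log2 value of 0.86 ± 0.084 (standard error), with a limma adjusted p of 0.0041. Its 3 transcripts each had their lowest 3D value above their highest monolayer value. Dusp16, a phosphatase for JNK and p38, went from 4.39 and 3.47 TPM to 5.78 and 5.97 TPM (log2 fold change 0.45, limma adjusted p = 0.024). Spred2 was at 17.4 and 14.3 TPM in 2D and at 20.5 and 19.9 TPM in 3D (log2 fold change 0.30, limma adjusted p = 0.043). The calls of Dusp16 and Spred2 were lost without the filter on low values, with adjusted p of 0.057 and 0.083 in limma, and that of Spred2 also without scaling between samples (0.056) and without the intensity trend (0.058). Dusp7, the cytoplasmic relative of Dusp6 that also prefers ERK, was at 6.01 and 6.74 TPM in 2D and at 6.87 and 6.51 TPM in 3D. Its groups overlapped, the log2 fold change was 0.025 and its 95% interval ran from -0.23 to 0.28. Spry3 had 1.07 and 1.66 TPM in 2D and 1.81 and 2.21 TPM in 3D (adjusted p = 0.18 in limma). Dusp2 was listed at 0 in both monolayers and at 0.093 and 0.11 TPM in 3D, and Dusp9 was listed at 0 in every sample. Without 3D replicate 1 none of the 7 was called, and 1 was called without 3D replicate 2 or without 2D replicate 2.

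Upstream of the inhibitors, 20 of 31 receptor and ligand genes were tested, of which 9 rose and none fell. Kit, the receptor of stem cell factor, went from 38.4 and 37.0 TPM to 83.2 and 80.1 TPM (log2 fold change 1.05, limma adjusted p = 0.0027). Hbegf, a ligand of the EGF receptor, went from 8.19 and 7.45 TPM to 17.2 and 18.1 TPM (log2 fold change 1.04, limma adjusted p = 0.0035). The receptor gene Egfr, named with its value known, was low, at 1.06 and 0.80 TPM in 2D and 1.42 and 1.25 TPM in 3D. It did not pass the threshold (adjusted p = 0.19 in limma). Igf2 had the highest level of this list, 181 ± 2.43 TPM in 2D and 199 ± 10.9 TPM in 3D (SD, n = 2), which did not differ past the threshold (adjusted p = 0.33 in limma). Without 3D replicate 1 the number called was 1, and without 3D replicate 2 it was 5.

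All 27 genes of the ERK cascade from adaptor to effector kinase were tested, and 5 rose and 5 fell. The median log2 fold change was 0.014. The rises were those of the scaffold Ksr2, the effector kinase Rps6ka3, the kinase Braf, the exchange factor Sos1 and the RAS-RAF scaffold Shoc2. Ksr2 went from 4.94 and 3.47 TPM to 11.0 and 10.4 TPM (log2 fold change 1.15, limma adjusted p = 0.0051) and Rps6ka3 from 8.93 and 7.45 TPM to 13.9 and 13.1 TPM (log2 fold change 0.62, limma adjusted p = 0.0075). The falls were those of Hras, both ERK-activating kinases Map2k1 and Map2k2, and the adaptors Grb2 and Shc1. Hras fell from 69.7 and 71.7 TPM to 53.8 and 55.0 TPM (log2 fold change -0.41, limma adjusted p = 0.0081). Map2k2, the most abundant gene of the list, fell from 97.6 and 102 TPM to 87.0 and 88.2 TPM (log2 fold change -0.23, limma adjusted p = 0.041), a call lost without the filter on low values (0.064) or without the trend (0.071). Mapk3, which encodes an ERK kinase, had a log2 fold change of 0.014 and did not pass the threshold. The list had 6 calls without the filter on low values and 6 without the trend, 5 without 2D replicate 2, and none without either 3D replicate. Apart from Ksr2, Rps6ka3, Hras and Map2k2, the genes of this list are named with their values known.

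Of 21 genes of the JNK, p38 and ERK5 cascades 19 were tested, and 3 rose and 1 fell. Map2k4, a kinase that activates JNK, went from 29.3 and 25.7 TPM to 34.4 and 35.4 TPM (log2 fold change 0.30, limma adjusted p = 0.020). Map2k3, a kinase that activates p38, went from 3.61 and 2.88 TPM to 10.4 and 5.70 TPM, with the 3D samples far apart (log2 fold change 1.01 ± 0.26, limma adjusted p = 0.030). Map2k5, a kinase that activates ERK5, fell from 12.1 and 11.0 TPM to 9.50 and 9.85 TPM (log2 fold change -0.27, limma adjusted p = 0.032). The other rise was that of Map3k1, named after its value had been seen. For Mapkapk2, the most abundant gene of the list, the log2 value was 0.15 and the limma adjusted p 0.072. The call of Map2k5, the only fall of the list, was lost without scaling (limma adjusted p = 0.088) and without the filter on low values (0.062), and that of Map2k3 without the filter (0.080). Without 3D replicate 1 the log2 fold change of Map2k3 was 0.62. Without the filter on low values 1 gene of the list was called, without 2D replicate 2 or 3D replicate 1 none, and without 3D replicate 2 again 1.

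Inhibitors of the ERK pathway from other families went both ways, with 6 of 17 tested genes higher and 4 lower. Errfi1, which encodes an inhibitor of EGF receptor kinases, went from 13.5 and 13.4 TPM to 21.5 and 20.7 TPM (log2 fold change 0.57, limma adjusted p = 0.0053). Pea15, whose product holds ERK in the cytoplasm, fell from 17.4 and 17.1 TPM to 12.2 and 12.5 TPM (log2 fold change -0.49, limma adjusted p = 0.0063). Rasa3, a RAS inactivator, fell from 15.8 and 16.1 TPM to 10.5 and 11.3 TPM (log2 fold change -0.55, limma adjusted p = 0.0064). Pebp1, the RAF kinase inhibitor protein, was the most abundant gene of the list and fell from 617 and 628 TPM to 529 and 522 TPM (log2 fold change -0.29, limma adjusted p = 0.020). The other fall was that of Lztr1, named after its value had been seen. Among 15 atypical DUSP genes, small phosphatases without the kinase-docking domain of the MAP kinase phosphatases, 12 were tested, 2 rose and 2 fell. Dusp3 went from 19.3 and 19.2 TPM to 24.9 and 25.5 TPM (log2 fold change 0.33, limma adjusted p = 0.013), and Dusp22 fell from 19.9 and 18.8 TPM to 14.7 and 16.0 TPM (log2 fold change -0.36, limma adjusted p = 0.013). The other calls, those of Styx and Dusp19, were made at under 5 TPM and are named after their values had been seen. Without either 3D replicate no gene of these 2 lists was called. With a mean TPM of at least 5 required, 2 atypical DUSP genes were called.

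Transcripts that follow ERK activity in many cell types were set beside the inhibitors, without the members themselves. Of 20 such genes 12 were tested, 6 rose and 1 fell, and the median log2 fold change was 0.34. Etv1, an ETS transcription factor and the most abundant gene of the list, went from 73.9 and 63.1 TPM to 130 and 131 TPM (log2 fold change 0.88, limma adjusted p = 0.0036). Junb went from 15.1 and 16.4 TPM to 35.2 and 33.1 TPM (log2 fold change 1.03, limma adjusted p = 0.0037), and Myc from 46.8 and 44.3 TPM to 75.3 and 65.4 TPM (log2 fold change 0.57, limma adjusted p = 0.0081). The fall was that of Etv5, named after its value had been seen. It was at 8.48 and 6.89 TPM in 2D and at 5.55 and 6.39 TPM in 3D (log2 fold change -0.35, limma adjusted p = 0.0495), and no gene of the list was called lower without scaling, with median of ratios scaling, without the filter or without the trend. Etv4 and Phlda1 had log2 fold changes of 0.15 and 0.14 and did not pass the threshold. The remaining rises were those of Fos, Fosl2 and Klf6, with log2 fold changes of 0.66, 0.79 and 0.35. All of these too are named with their values known. The number called was 0 without 3D replicate 1, 3 without 3D replicate 2 and 3 without 2D replicate 2. Of the 22 genes outside the 10 members that the naming rule picked and that were called, 1 was still called without 3D replicate 1 and 8 without 3D replicate 2.

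**Figure D5:**
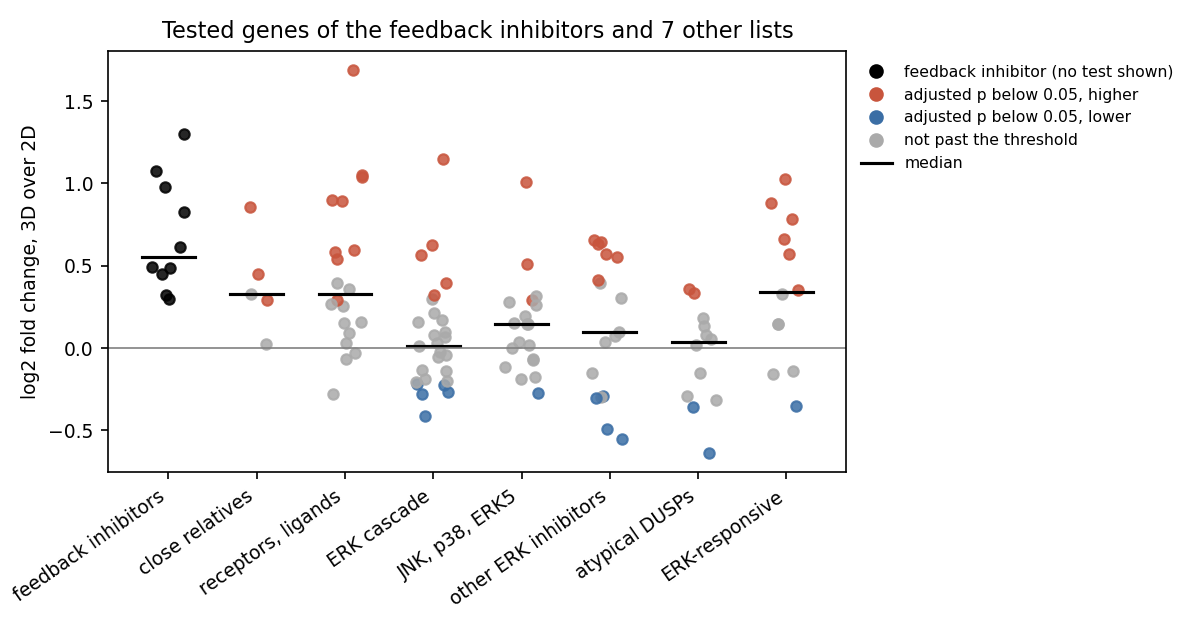
Log2 fold change of 3D over 2D culture for every tested gene of the 10 feedback inhibitors (black, no test shown) and of 7 other lists, colored by limma's adjusted p, with black lines for the medians. The medians run from 0.014 for the ERK cascade to 0.55 for the feedback inhibitors. The place of the feedback inhibitors carries no weight, since their choice used this difference.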

How the data were processed

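Polyadenylated RNA of 4 INS-1 cultures was sequenced as 75-base single-end reads of stranded libraries. The authors quantified transcripts with Salmon 1.2 against a reference that they name as rn4, to which the human insulin gene was added. They deposited TPM per transcript, written with decimal commas, in which each sample sums to 1000000. These values were read without other changes and summed per gene symbol. Among the 6 pairs of samples, 0 transcripts had the same value above 0.

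Genes below a mean of 1 TPM were dropped. Samples were scaled by TMM without weights (trims of 30% on M and 5% on A, factors 0.960 to 1.02). The log2(TPM + 1) values were tested with limma 3.58.1 in R 4.3.3 (empirical Bayes with an intensity trend) and Benjamini-Hochberg adjustment. Levels are given as deposited, and fold changes after scaling. The count-based test of the study's methods needs counts, which TPM do not carry. The cultures are stated to be biological replicates. As 2 against 2 allow no exact two-sided permutation p under 0.33, calls depend on limma's pooled spread.

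The members and lists were chosen with earlier results of these data known. Genes named are all members, all close relatives and, in each other list, up to 3 with the smallest p among those called with a mean TPM of at least 5, plus the most abundant. Some genes are not reported here. On simulated TPM with 200 changed genes among 11842, 83.5% were called, and 2.9% of calls were of unchanged genes. The sizes of these changes were preset, and far fewer genes changed than the 4541 called in the data. The rates therefore describe the simulated setting and not these samples. Alternatives were the scaling, the pseudocount, the filter, the replicate block, the trend and each culture left out. Of the listed symbols, 3 markers were not analysed here. Protein sequences were not used here.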

Additional observations from a re-analysis of the deposited data

How the results depend on the processing

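TPM carry no depth, so precision is that of 2 cultures per group, and a lone culture left in a group is assumed to vary like the others. Across the 11 other settings, 36 genes were followed, which are the tested members, close relatives and genes picked by the naming rule. Genes named with their values known were not followed. Among the 36 the direction changed for Dusp7 alone. Its log2 fold change was -0.080 without 2D replicate 1 and -0.019 without 3D replicate 1. When single cultures were omitted, it ranged from -0.080 to 0.13. Under such omissions, genes called ranged from 37 to 4456 against 4541, members from 0 to 9, close relatives from 0 to 3, atypical DUSP genes from 0 to 4, other ERK-pathway inhibitors from 0 to 11, receptors and ligands from 1 to 8, the ERK cascade from 0 to 11, the JNK, p38 and ERK5 cascades from 0 to 5 and ERK-responsive genes from 0 to 6. The lowest of these counts came without 3D replicate 1. Without the filter on low values, where more genes are tested, calls were 1 of the close relatives, 6 of the ERK cascade and 1 of the JNK, p38 and ERK5 cascades. With a mean TPM of at least 5, where fewer genes are tested, 2 atypical DUSP genes were called, and without the trend 6 of the ERK cascade. The cause of the last was not tested. Whether same-numbered cultures shared an origin is not stated (correlation of their deviations -0.006). The replicate block gave calls for 4814 genes and 9 members, adding Spred1. The counts of members are again a description, since the choice of the members used this difference. For genes picked by the naming rule other than members, 228 values in other settings stayed on their side of the threshold, 53 lost the call and 1 gained it.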

Other observations

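Some genes of the lists lay below the filter of 1 TPM and were not tested. The values of a few are given as listed, chosen with their values known, and they differ in both directions. The ERBB ligand gene Btc was at 1.51 and 0.98 TPM in 2D and at 0.75 and 0.73 TPM in 3D. Mapkapk3, which encodes a kinase activated by p38, was at 0.27 and 0.31 TPM in 2D and at 0.21 and 0.17 TPM in 3D. Ccnd1, which encodes the G1 cyclin D1, was at 0.053 and 0.038 TPM in 2D and at 0.25 and 0.30 TPM in 3D. Epha4, an ephrin receptor gene, was at 0.093 and 0.067 TPM in 2D and at 0.18 and 0.28 TPM in 3D. Styxl1, which encodes a pseudophosphatase, was at 0.50 and 0.37 TPM in 2D and at 1.45 and 1.51 TPM in 3D. Among receptors, Erbb2 and Erbb3 stayed under 0.05 TPM and Erbb4 was listed at 0 in every sample.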
